A study of Mus musculus with 18 samples.

Results

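Matrix metalloproteinases (Mmp), the related secreted proteases of the ADAMTS family (Adamts), the ADAMTS-like proteins (Adamtsl) and the tissue inhibitors of metalloproteinases (Timp) were followed across young, old and rejuvenated old mouse MSCs. Genes were taken by name, as every listed gene whose symbol is Mmp, Adamts, Adamtsl or Timp followed by its number. Of the 27179 listed genes, 51 had such a name, and 35 of these had a mean of at least 10 over the 18 libraries. These 35 were 14 of 23 Mmp genes, 13 of 19 Adamts genes, 4 of 5 Adamtsl genes and 4 of 4 Timp genes. The names and the minimum mean use no difference between groups, but the genes were chosen with earlier results of these data known. In addition, 6 of the 35 (Adamts3, Adamts15, Adamts16, Mmp12, Mmp27 and Timp4) had a group mean under 10 and were kept through the groups in which they were higher.

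The cells were primary mesenchymal stem cells (MSCs) grown out of the bone marrow of C57BL6 mice, aged 6 weeks for the young group and 18 to 24 months for the old group. Young and Old MSCs received no treatment, and Rejuvenated Old MSCs were old MSCs grown for 7 days beside young MSCs on the other side of a membrane with 0.4 µm pores, which soluble factors pass and cells do not. RNA was taken on day 7 in all 3 groups, with 6 libraries a group. The labels call the libraries biological replicates without saying whether they came from separate animals, so p-values measure the spread between these cultures.

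MMPs are zinc-dependent proteases that together can cut most proteins of the extracellular matrix, and they are made as inactive precursors. ADAMTS proteases cut proteoglycans or trim procollagens, ADAMTS-like proteins share their binding modules but have no protease domain, and TIMPs bind active MMPs and some ADAMTS proteases and block them. In bone marrow stroma and bone, these enzymes act in matrix turnover, in release of factors held in the matrix and in cell migration.

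The total of recovered reads ran from 22936251 to 25648769 in Young, from 24965971 to 29559194 in Old and from 26018046 to 29155223 in Rejuvenated Old libraries. Rejuvenated Old replicate 1 stood apart, with a root mean square distance of 0.374 (log2 scale, all tested genes) from the mean of the others of its group, against 0.254 to 0.304 for the other 5. The cells were labelled mesenchymal, and of 12 MSC markers 5 were higher and 7 lower in Young than in Old MSCs. Of all tested genes, 41.6% were higher and 44.1% lower in that comparison. The surface markers Thy1 and Nt5e had medians of 192 and 302 normalized counts in Young against 0.956 and 14.4 in Old MSCs. Conversely, Eng, Vcam1, Lepr and Cxcl12 had Young medians of 164, 921, 37.0 and 9215 against Old medians of 7288, 6436, 379 and 197597. The summed level of 12 macrophage markers was 957 to 1079 in Young MSCs, 14258 to 17668 in Old MSCs and 14159 to 17218 in Rejuvenated Old libraries. Of these 12, Ptprc, Adgre1, Itgam and Tyrobp never passed 3 reads in a Young library. Cd68, Cd14, Lyz2 and Csf1r were present there, with Young medians of 434, 246, 178 and 111 against Old medians of 1209, 334, 10221 and 807. Comparisons with Young MSCs thus set cultures with fewer macrophage transcripts beside cultures with more, and the part of this in the differences below was not tested. The median gene of some chromosomes also differed between Young and Old MSCs. Its log2 fold change relative to the autosomes was -0.72 on chromosome 16, -0.66 on chromosome 1, -0.43 on chromosome 12 and 0.64 on chromosome 7. In Rejuvenated Old against Old MSCs the chromosomes ran from -0.049 to 0.052.

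A cluster of 10 Mmp genes lies on mouse chromosome 9 (chr9:7272514-7699585, GRCm38.p6, 427 kb), and 4 of them were among the 35, namely Mmp13, Mmp12, Mmp3 and Mmp27. The 100 bases before the annotated start of 4 cluster genes are shown because these neighbours differed in their levels between groups, as given further on. Capitals mark an AP-1 site, searched as TGANTCA with any base at N, a pattern that reads the same on both strands. They also mark a TATA box, TATAAA, searched on both strands. All 4 genes lie on the plus strand, at chr9:7272414-7272513 for Mmp13, chr9:7445722-7445821 for Mmp3, chr9:7502242-7502341 for Mmp10 and chr9:7571296-7571395 for Mmp27.
Mmp13: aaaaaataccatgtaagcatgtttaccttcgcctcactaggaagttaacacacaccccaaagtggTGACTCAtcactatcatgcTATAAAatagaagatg
Mmp3: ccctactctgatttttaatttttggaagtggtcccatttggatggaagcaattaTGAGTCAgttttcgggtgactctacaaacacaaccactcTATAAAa
Mmp10: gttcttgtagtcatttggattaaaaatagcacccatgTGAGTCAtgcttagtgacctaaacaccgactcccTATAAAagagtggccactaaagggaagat
Mmp27: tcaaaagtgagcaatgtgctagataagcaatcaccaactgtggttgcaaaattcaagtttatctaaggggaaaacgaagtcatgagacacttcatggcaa
The AP-1 site and the TATA box were both present before Mmp13, Mmp3 and Mmp10, and neither before Mmp27. Within 250 bases before the start, 8 of the 10 cluster genes held an AP-1 site and 7 of 10 a TATA box, against 6.75% and 12.4% of 32851 RefSeq promoters of the same length and 1.21% with both. The AP-1 match of Mmp20 was TGAATCA, and those of the other cluster genes had C or G as the middle base. The cluster genes are related in sequence, so their promoters are not separate observations. Of the 35 genes, 22 had a promoter entry, and of these 22 an AP-1 site was found for Mmp12 (in 1 of its 2 entries), Mmp13 and Mmp3, and a TATA box for Adamts1, Mmp13 and Mmp3. These are matches of letters and no measurement of binding.

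Co-culture with young MSCs was compared first, as Rejuvenated Old against Old MSCs. No group of old MSCs grown beside other old MSCs was sequenced. Effects of young MSCs and of any neighbouring culture in the well therefore cannot be told apart here. Of the 35 genes, 24 differed between Rejuvenated Old and Old MSCs (differentially expressed genes, DEGs, limma adjusted p under 0.05), or 68.6% against 41.6% of all 14353 tested genes. The DEGs were 11 higher and 13 lower in Rejuvenated Old MSCs, where 21.0% and 20.6% of all tested genes were higher and lower. Each fold change is a log2 value, the mean of log2(normalized count + 1) in the one group minus that in the other, and its median size was 0.36 over the 35 genes. Only 5 DEGs reached a log2 fold change of 1 in size, or 14.3% against 2.34% of tested genes, with Adamtsl1, Adamts5, Mmp13 and Adamts1 higher (1.34% of tested genes) and Mmp15 lower (0.996%). All 6 libraries of one group lay above or below all 6 of the other for 20 genes, or 57.1% against 22.0%. Without Rejuvenated Old replicate 1 the count was again 24, with 11 higher and 13 lower.

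**Figure D1:**
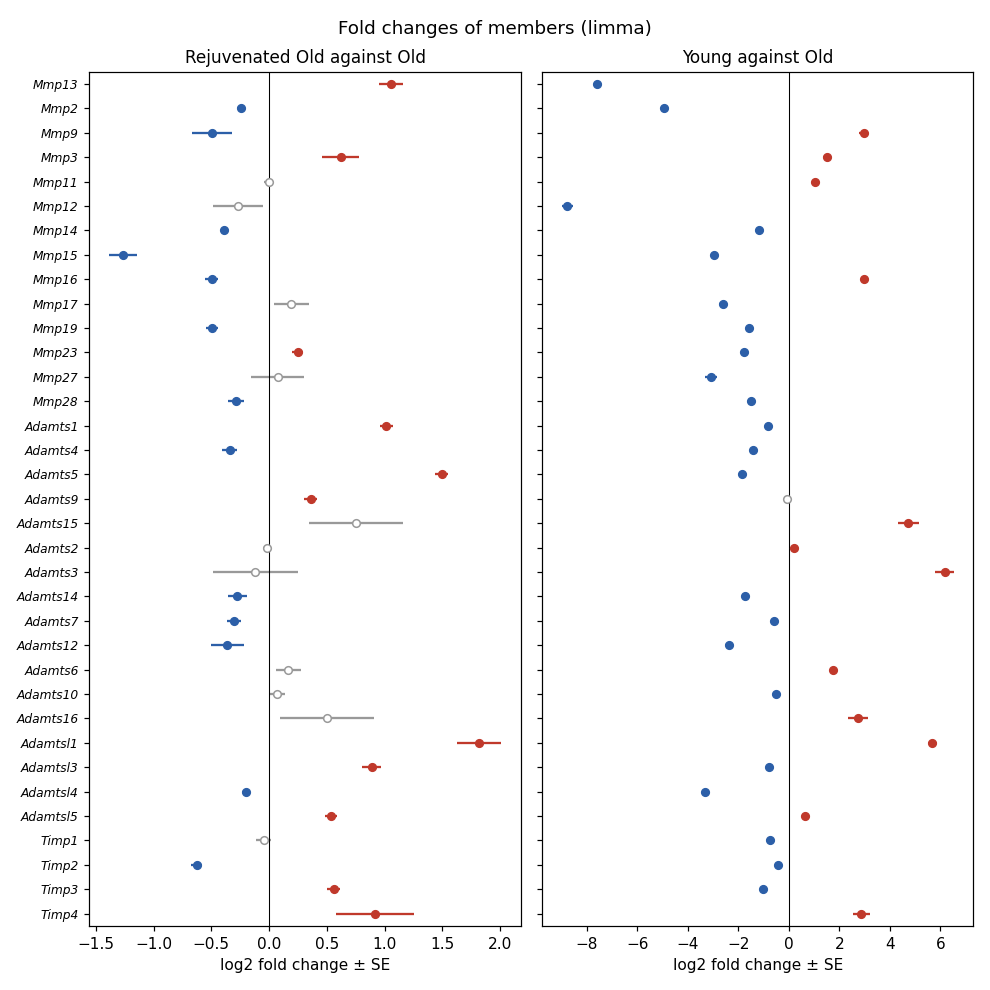
Log2 fold changes (points, with bars of 1 SE) of the 35 genes in Rejuvenated Old against Old MSCs (left) and Young against Old MSCs (right), with filled red for higher DEGs, filled blue for lower DEGs and open grey for genes that did not pass limma's test. The axes differ in range. On the left most genes lie within 1 of zero, with Adamtsl1 at 1.82 and Mmp15 at -1.27 at the ends, and on the right values run from -8.78 for Mmp12 to 6.17 for Adamts3.

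Young MSCs differed from Old MSCs in 34 of the 35 genes, 12 higher and 22 lower in Young, or 97.1% against 85.7% of all tested genes (41.6% higher and 44.1% lower). A log2 fold change of at least 1 in size was reached by 26 genes, 10 higher and 16 lower, or 74.3% against 31.9% (13.8% higher and 18.1% lower). The groups did not overlap for 34 genes, or 97.1% against 73.9%. Rejuvenated Old MSCs differed from Young MSCs in 34 genes, 22 higher and 12 lower in Rejuvenated Old, against 85.6% of tested genes (44.1% higher and 41.5% lower). Of these, 26 were past a log2 fold change of 1 in size, 17 higher and 9 lower, against 31.0% of tested genes (17.9% higher and 13.1% lower), and 33 had groups apart, or 94.3% against 70.5%. The median size of the fold change was 1.77 for Young against Old and 1.71 for Rejuvenated Old against Young MSCs. These comparisons share their libraries, so they are not independent of each other. Adamts3, Adamts15, Adamts16, Mmp12, Mmp27 and Timp4, kept through the groups in which they were higher, are among the 26 genes in both. The filter on the mean thus bears on these counts, and all tested genes passed the same filter.

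**Figure D2:**
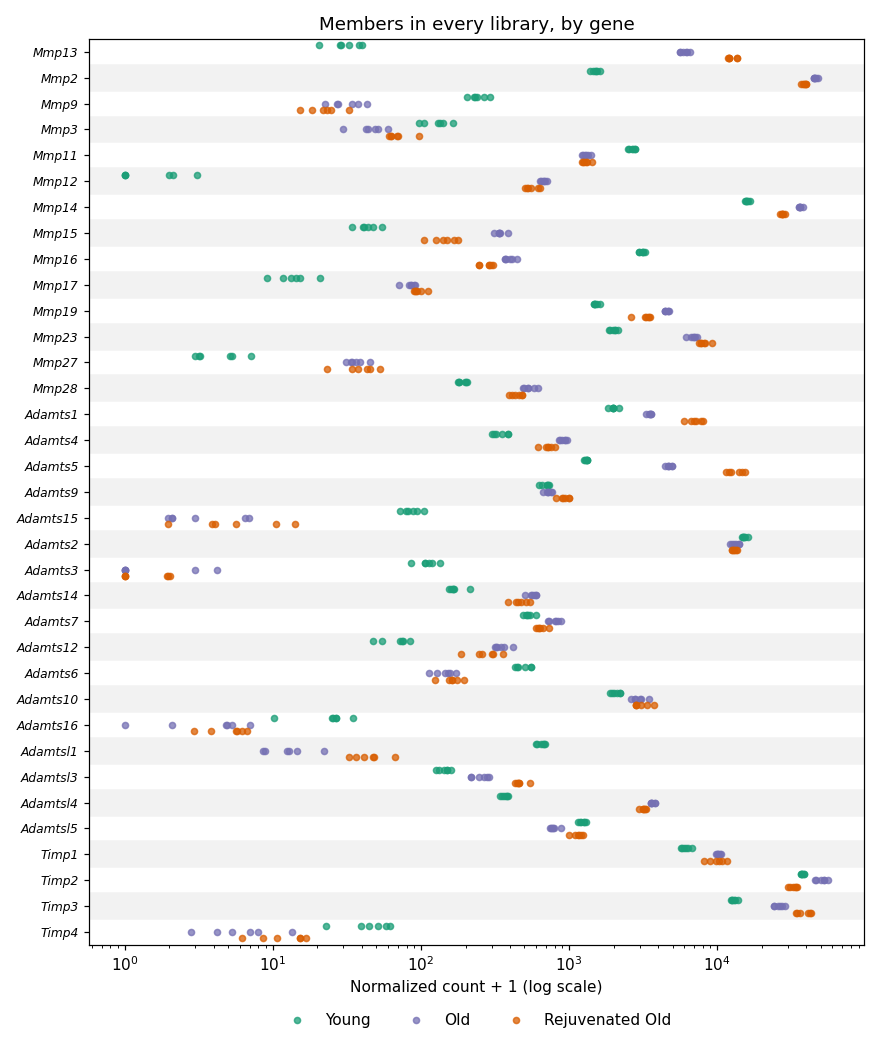
Normalized count + 1 (log axis) of each of the 35 genes in each of the 18 libraries, with Young in green, Old in purple and Rejuvenated Old in orange and 1 point a library. Young lies apart from Old in 34 genes, while Old and Rejuvenated Old points lie close together for most genes and are furthest apart for Adamtsl1 and Adamts5.

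Among the collagenases, which open the triple helix of fibrillar collagen, Mmp13 was the gene of the group with a mean of at least 10. Mmp13 is made by hypertrophic chondrocytes and osteoblasts in bone. It stood at 19.6 to 39.1 normalized counts (reads divided by a size factor for each library) in Young MSCs, with a median of 29.8. In Old MSCs it ran from 5599 to 6507 with a median of 5985, and in Rejuvenated Old MSCs from 11779 to 13595 with a median of 12009.8. The 3 groups were apart and in this order. Mmp13 was higher in Rejuvenated Old than in Old MSCs by a log2 fold change of 1.06 ± 0.11 (SE, adjusted p = 4.91e-08) and lower in Young than in Old MSCs (log2 fold change -7.61 ± 0.11, adjusted p = 4.36e-25). Of 5 chondrocyte markers, 4 could be tested, with Col2a1 and Sox9 higher and Col10a1 lower in Rejuvenated Old MSCs. The sum of that list was 589 to 654 in Young MSCs, 2638 to 3003 in Old MSCs and 3593 to 4262 in Rejuvenated Old libraries. Of 7 osteoblast markers, 1 was higher and 5 lower with co-culture, and all 7 were lower in Young than in Old MSCs. Of all tested genes, 21.0% were higher and 20.6% lower with co-culture, and 44.1% were lower in Young than in Old MSCs. The sums of the osteoblast markers were 1845 to 2146 in Young, 4175 to 4301 in Old and 3858 to 4376 in Rejuvenated Old libraries. In bulk RNA, fewer cells of a type and less RNA per cell cannot be told apart, and the part of these cells in the level of Mmp13 was not tested. The other collagenases Mmp1a, Mmp1b and Mmp8 had group means of at most 3.74.

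The gelatinases Mmp2 (chr8:92827290-92853421) and Mmp9 (chr2:164940326-164955850), which cut denatured collagen and basement membrane collagen, were ordered oppositely. Mmp2 ran from 1387 to 1617 in Young (median 1505), from 44838 to 48122 in Old (median 45368) and from 36732 to 40033 in Rejuvenated Old MSCs (median 39068). Its Young libraries were lower by 30.6-fold than the Old ones (log2 fold change -4.94 ± 0.034, adjusted p = 4.56e-30). Rejuvenated Old MSCs were slightly below Old MSCs with no overlap, at a log2 fold change of -0.24 ± 0.034 (adjusted p = 6.38e-06). Mmp9 was at 244 ± 31.6 in Young MSCs, 30.9 ± 7.61 in Old MSCs and 21.7 ± 6.05 in Rejuvenated Old MSCs (mean ± SD, n = 6 each). It was thus higher in Young than in Old MSCs, by a log2 fold change of 2.96 ± 0.17. Its Rejuvenated Old level was below the Old one (log2 fold change -0.50 ± 0.17, adjusted p = 0.0245), with overlapping groups. That call was lost without Old replicate 3 (adjusted p = 0.0700) or 4 (0.0579), without Rejuvenated Old replicate 3 (0.0690) or 4 (0.0567), and with only these groups in the fit (0.0585). Neutrophils and osteoclasts are known to make Mmp9, and their markers were mixed. Of the neutrophil markers, Elane, Mpo, S100a9, Ngp and Ltf had at most 3 reads in every library, while Camp, the single one that could be tested, had medians of 34.5 in Young MSCs, 228 in Old MSCs and 146 in Rejuvenated Old MSCs and was a DEG between Old MSCs and each of the other groups. The sum of the 7 neutrophil markers was 30.2 to 53.3 in Young MSCs, 214 to 249 in Old MSCs and 119 to 169 in Rejuvenated Old libraries. Of the 8 osteoclast markers, Dcstamp and Calcr had at most 3 reads throughout. Acp5 and Ocstamp were also under the minimum mean and were not tested. Acp5 ran from 1.09 to 16.0 across Young libraries, above every Old one (at most 1.00), and reached at most 3.09 with co-culture. Ocstamp had a mean of 3.26 for Young against 1.18 for Old MSCs, with overlapping groups. The list sums were 466 to 580 in Young MSCs, 4708 to 5028 in Old MSCs and 4061 to 5079 in Rejuvenated Old libraries. Of 4 osteoclast markers that could be tested, Oscar was higher and Ctsk, Itgb3 and Tnfrsf11a were lower in Young than in Old MSCs, and Itgb3 was below its Old level in Rejuvenated Old MSCs. Ctsk had medians of 132 in Young and 4446 in Old MSCs, Itgb3 of 329.9 and 433 and Tnfrsf11a of 1.06 and 33.3. The part of these cells in the level of Mmp9 was not tested.

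Mmp12, the macrophage elastase, showed the greatest contrast of the 35 genes between Young and Old MSCs. It was 0 to 2.06 in Young MSCs, with a median of 0.498 and 4 reads over the 6 libraries together. It was 634 to 707 in Old MSCs (median 674) and 503 to 632 in Rejuvenated Old MSCs (median 541). The Old level was 965 times the Young one, with a 95% interval of 377 to 3541 for counting error only, and the fitted log2 fold change of -8.78 depends on the pseudocount. This gene moved with the macrophage markers given above, of which 11 of 12 were lower in Young than in Old MSCs and 1, Aif1, was higher. Of all tested genes, 44.1% were lower and 41.6% higher in that comparison. Between Rejuvenated Old and Old MSCs 1 macrophage marker, Itgam, was higher and 1, Cd68, was lower. Every Rejuvenated Old library had less Mmp12 than every Old library, yet limma did not call it (log2 fold change -0.27 ± 0.21, adjusted p = 0.332). Its call depends on the setting, with an adjusted p of 0.00146 when only these groups were fitted, 0.00495 with a pseudocount of 10, 0.00152 with edgeR and 8.83e-05 with DESeq2. Matrilysin (Mmp7) was under the minimum, at a mean of 2.24 in Young and 0 in every other library, which allows up to 3 reads a library.

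The stromelysins are Mmp3 and Mmp10, which cut proteoglycans, laminin and the precursors of other MMPs, and Mmp11. Those that could be tested, Mmp3 and Mmp11, were higher in Young than in Old MSCs. Mmp3 was at 128 ± 24.2 in Young MSCs, 45.2 ± 10.3 in Old MSCs and 69.3 ± 13.6 in Rejuvenated Old MSCs (mean ± SD, n = 6). It rose in Rejuvenated Old against Old MSCs by a log2 fold change of 0.62 ± 0.16 (adjusted p = 0.00348), and its groups did not overlap. Mmp11, known from the stroma around tumours, was higher in Young than in Old MSCs by 1.03 ± 0.043 and was 1297 in Old and 1277 in Rejuvenated Old MSCs at the median, a log2 fold change of -0.01 ± 0.043 (adjusted p = 0.936). Mmp10 stayed under the minimum mean and was not tested. It was 16.5 to 25.9 in Young MSCs and at most 2.15 and 2.85 in Old and Rejuvenated Old MSCs, so that its Young libraries lay apart from the others.

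Within the chromosome 9 cluster, neighbours had opposite orders. Mmp13, Mmp12 and Mmp27 were lower in Young than in Old MSCs, and Mmp3 was higher in Young. Mmp27 ran from 1.99 to 6.07 in Young (median 3.18), from 30.1 to 44.2 in Old (median 34.4) and from 22.4 to 51.9 in Rejuvenated Old MSCs (median 39.5). The Young libraries of Mmp27 were below all others (log2 fold change to Old -3.10 ± 0.23), and Old and Rejuvenated Old overlapped (adjusted p = 0.822). Mmp13 and Mmp3 thus had opposite orders between Young and Old MSCs but were both higher in Rejuvenated Old than in Old MSCs. Any part of the promoter sites printed above in these levels was not tested. Of the other 6 cluster genes, Mmp1a, Mmp1b, Mmp20, Mmp7 and Mmp8 had group means between 0 and 3.74.

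**Figure D3:**
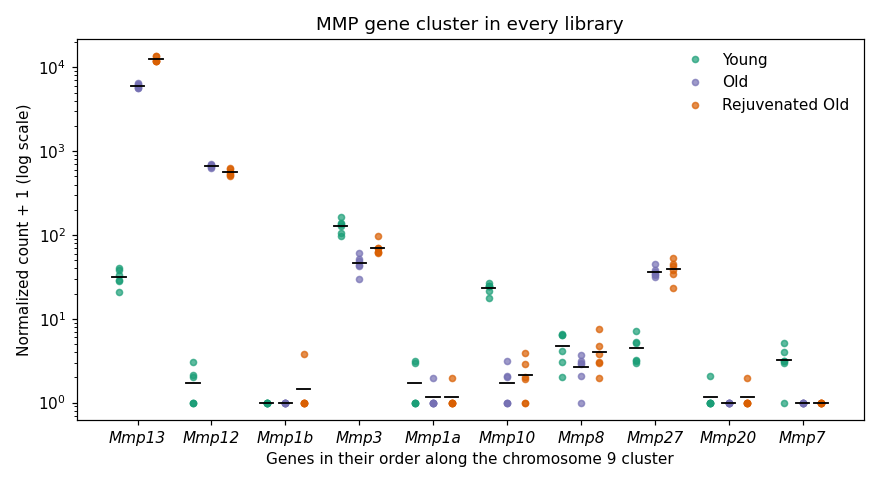
Normalized count + 1 (log axis) of the 10 genes of the Mmp cluster, in their order along chromosome 9, in each library, with black bars for the group means. Young (green) is lowest for Mmp13, Mmp12 and Mmp27 and highest for Mmp3 and Mmp10, and Rejuvenated Old (orange) is above Old (purple) for Mmp13 and Mmp3.

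Of the membrane-type MMPs, which are held at the cell surface, 4 of 6 reached the minimum mean. Mmp14, the activator of pro-Mmp2, was at 15912 ± 458 in Young MSCs, 36238 ± 856 in Old MSCs and 27617 ± 672 in Rejuvenated Old MSCs (mean ± SD, n = 6). Its 3 groups were apart, with log2 fold changes to Old of -0.39 ± 0.028 in Rejuvenated Old and -1.19 ± 0.028 in Young MSCs. Mmp15 (chr8:95352296-95374293) was 33.4 to 53.6 in Young (median 41.8), 312 to 389 in Old (median 337) and 104 to 177 in Rejuvenated Old MSCs (median 144). It was the DEG with the largest decrease among the 35 in Rejuvenated Old MSCs, at a log2 fold change of -1.27 ± 0.12 (adjusted p = 1.98e-08), and in Young against Old MSCs it had one of -2.98 ± 0.12. Mmp16 had the reverse order between ages, with medians of 3129.7 in Young MSCs, 384 in Old MSCs and 288 in Rejuvenated Old MSCs. It was higher in Young than in Old MSCs by 2.98 ± 0.059 and below its Old level in Rejuvenated Old MSCs (log2 fold change -0.50 ± 0.059), so that Rejuvenated Old lay furthest from Young. Mmp17 was lower in Young than in Old MSCs (log2 fold change -2.63 ± 0.15), and its medians of 84.9 in Old and 92.5 in Rejuvenated Old MSCs did not pass the test (adjusted p = 0.337). Mmp24 and Mmp25 had means under 10 over all libraries.

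The other MMPs with a mean of at least 10 were all lower in Young than in Old MSCs. The log2 fold change was -1.59 ± 0.052 for Mmp19, -1.79 ± 0.046 for Mmp23 and -1.50 ± 0.068 for Mmp28, with separate groups for each. In Rejuvenated Old against Old MSCs Mmp19 fell by 0.49 ± 0.052 and Mmp28 fell by 0.29 ± 0.068 on the log2 scale, while Mmp23, a short MMP that lacks the usual cysteine switch, rose by 0.25 ± 0.046. Mmp19 overlaps Tmem198b, Mmp23 overlaps Mib2 and Mmp28 overlaps 1700020L24Rik, as Timp2 overlaps Cep295nl, Adamts6 overlaps Gm8680 and Adamts9 overlaps A730049H05Rik and 9530026P05Rik. The strand setting of the counting is not stated, so reads of such neighbours may not be told apart.

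Of the Adamts proteases that cut aggregating proteoglycans, Adamts1 and Adamts5 rose most in Rejuvenated Old MSCs. Adamts5 (chr16:85858157-85901125), a major aggrecan-cutting enzyme of mouse cartilage, was 1253 to 1329 in Young (median 1313), 4468 to 4933 in Old (median 4675) and 11504 to 15508 in Rejuvenated Old MSCs (median 13214). The log2 fold change to Old was 1.49 ± 0.055 in Rejuvenated Old MSCs (adjusted p = 3.71e-15) and -1.86 ± 0.055 in Young MSCs (adjusted p = 4.43e-19). Adamts1, which lies beside Adamts5 (chr16:85793827-85803113), was 1832 to 2173 in Young (median 1984), 3325 to 3587 in Old (median 3519) and 5979.8 to 7995 in Rejuvenated Old MSCs (median 7085). Its log2 fold change to Old was 1.02 ± 0.053 in Rejuvenated Old (adjusted p = 1.22e-12) and -0.81 ± 0.053 in Young MSCs. For both genes the 3 groups were apart, with Young lowest and Rejuvenated Old highest. The median gene of chromosome 16 was lower in Young MSCs, and relative to its median the fold change of Adamts1 in Young against Old MSCs was -0.07 (adjusted p = 0.196).

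The other genes of this role moved less or were low. Adamts4 was at 343 ± 37.7 in Young MSCs, 908 ± 47.4 in Old MSCs and 718 ± 63.5 in Rejuvenated Old MSCs (mean ± SD, n = 6). It was below its Old level in Rejuvenated Old MSCs (log2 fold change -0.34 ± 0.068), against the direction of Adamts1 and Adamts5. Adamts4 lies on chromosome 1, where the median gene was lower in Young than in Old MSCs. Adamts4 itself had a log2 fold change to Old of -1.41 ± 0.068 in Young MSCs. Adamts9 rose in Rejuvenated Old against Old MSCs by 0.36 ± 0.053 and was the gene that did not pass the test between Young and Old MSCs (-0.06 ± 0.053, adjusted p = 0.275). Relative to its chromosome, Adamts9 was lower in Young than in Old MSCs (log2 fold change -0.14, adjusted p = 0.0225). Adamts15 was 70.9 to 104 in Young (median 84.0), 0.962 to 5.91 in Old (median 1.54) and 0.951 to 13.2 in Rejuvenated Old MSCs (median 3.87). Its Young libraries were above all others (log2 fold change to Old 4.73 ± 0.41), and Rejuvenated Old against Old did not pass the test (adjusted p = 0.146) but did without Rejuvenated Old replicate 3 (0.0314). Among their substrates, Acan, the gene of aggrecan, had at most 3 reads in every library. Vcan, the gene of versican, had medians of 1739.8 in Young MSCs, 28281 in Old MSCs and 24234 in Rejuvenated Old MSCs, with log2 fold changes to Old of -4.04 in Young and -0.26 in Rejuvenated Old MSCs. Bcan, the other of 4 aggregating proteoglycans that could be tested, was lower in Young MSCs, and its Rejuvenated Old change did not pass (-0.53, adjusted p = 0.226).

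Adamts2, Adamts3 and Adamts14 remove the amino-terminal propeptide of fibrillar procollagens. Adamts2 was the most abundant Adamts transcript per kb of exon in all 3 groups and changed little, with medians of 15129 in Young MSCs, 13256 in Old MSCs and 13021 in Rejuvenated Old MSCs. It was higher in Young than in Old MSCs by 0.21 ± 0.035, and Rejuvenated Old and Old overlapped (-0.02 ± 0.035, adjusted p = 0.754). Adamts3 was 84.9 to 133 in Young MSCs (median 109), 0 to 3.23 in Old MSCs (median 0) and 0 to 1.03 in Rejuvenated Old MSCs (median 0.472). With 5 reads over the Old libraries and at most 3 in each, the Young level was 126 times the Old one (95% interval for counting error 53.9 to 387). Adamts14 had the opposite order, lower in Young than in Old MSCs (log2 fold change -1.73 ± 0.082), and Rejuvenated Old was below Old (log2 fold change -0.28 ± 0.082, adjusted p = 0.00939) with overlapping groups.

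Adamts7 and Adamts12 cut cartilage oligomeric matrix protein, the product of Comp. Both were lower in Young than in Old MSCs, with log2 fold changes of -0.58 ± 0.059 and -2.38 ± 0.14, and Comp itself was higher in Young MSCs, at a median of 236 against 24.5. In Rejuvenated Old against Old MSCs both were lower again, Adamts7 with a log2 fold change of -0.30 ± 0.059 and Adamts12 with -0.36 ± 0.14, the latter just inside the threshold (adjusted p = 0.0458). The call of Adamts12 was lost without Young replicate 1, without any one of Old replicates 2 to 6, or without Rejuvenated Old replicate 3, 4 or 5, with adjusted p from 0.0507 to 0.135. Of the Adamts genes without one of these roles, Adamts6 and Adamts16 were higher in Young than in Old MSCs, by 1.77 ± 0.11 and 2.74 ± 0.41, and Adamts10, a binder of fibrillin, was lower (-0.52 ± 0.069). None of these 3 passed limma's test between Rejuvenated Old and Old MSCs (adjusted p of 0.234, 0.349 and 0.482), nor did any by edgeR or DESeq2, and each overlapped between those groups.

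The ADAMTS-like genes held the largest increase among the 35 in Rejuvenated Old MSCs. Adamtsl1 (chr4:85513852-86428390) was 596 to 683 in Young (median 657), 7.53 to 21.1 in Old (median 11.7) and 31.9 to 66.1 in Rejuvenated Old MSCs (median 43.4). The log2 fold change to Old was 1.82 ± 0.19 in Rejuvenated Old (adjusted p = 8.91e-08) and 5.68 ± 0.19 in Young MSCs (adjusted p = 4.52e-18). Rejuvenated Old thus lay between the others, and below Young by 14.6-fold. Adamtsl3 was 125 to 159.6 in Young (median 145), 216 to 286 in Old (median 255) and 428 to 545 in Rejuvenated Old MSCs (median 454). It rose in Rejuvenated Old against Old MSCs by 0.89 ± 0.081 (adjusted p = 1.23e-08). It was lower in Young than in Old MSCs (log2 fold change -0.81 ± 0.081), on a chromosome whose median gene was higher in Young MSCs. Adamtsl4, a fibrillin-binding protein of the zonule of the eye, ran from 343 to 383 in Young (median 369), from 3557 to 3818 in Old (median 3593) and from 2953 to 3317 in Rejuvenated Old MSCs (median 3180.4). Its log2 fold change to Old was -0.20 ± 0.036 in Rejuvenated Old and -3.32 ± 0.036 in Young MSCs, with all groups apart. Adamtsl5 was at 1227 ± 60.4 in Young MSCs, 786 ± 49.2 in Old MSCs and 1144 ± 88.4 in Rejuvenated Old MSCs. It rose in Rejuvenated Old against Old MSCs by 0.54 ± 0.052 and was the gene that did not pass the test between Rejuvenated Old and Young MSCs (-0.10 ± 0.052, adjusted p = 0.0673). It passed that test, lower in Rejuvenated Old, with DESeq2 (0.0345), with libraries scaled to the same total (0.00261) or the same 75th percentile (0.0229), relative to the chromosome median (log2 fold change -0.29, 2.52e-05) and without Rejuvenated Old replicate 1 (0.0421) or 5 (0.0291), Young replicate 6 (0.0379) or Old replicate 6 (0.0493).

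The 4 inhibitors did not move together. Timp1 (chrX:20870166-20874737), which inhibits most soluble MMPs, was 5707 to 6721 in Young (median 6058), 9887 to 10528 in Old (median 10144) and 8128 to 11684 in Rejuvenated Old MSCs (median 10041). It was lower in Young than in Old MSCs (log2 fold change -0.74 ± 0.062), and Old and Rejuvenated Old overlapped (-0.05 ± 0.062, adjusted p = 0.575). Timp2 (chr11:118301061-118355411), which inhibits Mmp2 and also takes part in its activation by Mmp14, was 36683 to 38577 in Young (median 37356), 45843 to 56255 in Old (median 51338) and 29904 to 34532 in Rejuvenated Old MSCs (median 33158). All groups were apart, with Rejuvenated Old lowest, at a log2 fold change of -0.63 ± 0.046 to Old (adjusted p = 4.21e-10) and of -0.20 ± 0.046 to Young MSCs (adjusted p = 4.04e-04). Timp3 (chr10:86300412-86349505), which binds to the matrix and also inhibits ADAMTS proteases, was 12473 to 13802 in Young (median 12844), 24211 to 28541 in Old (median 26147) and 33815 to 43139.7 in Rejuvenated Old MSCs (median 38664). It rose in Rejuvenated Old against Old MSCs by 0.56 ± 0.057 (adjusted p = 6.72e-08) and was lower in Young than in Old MSCs (log2 fold change -1.01 ± 0.057), the same order of groups as for Adamts1 and Adamts5.

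Timp4 (chr6:115244444-115252205) was low, at 21.8 to 60.8 in Young (median 46.8), 1.82 to 12.5 in Old (median 5.16) and 5.15 to 15.8 in Rejuvenated Old MSCs (median 11.9). It was higher in Young than in Old MSCs by 2.87 ± 0.34 with separate groups. It was higher in Rejuvenated Old than in Old MSCs by 0.92 ± 0.34 (adjusted p = 0.0326), with overlapping groups. That call was lost with edgeR (0.0668), with a pseudocount of 10 (0.0695) and without any one of Old replicates 1, 3 and 4 or Rejuvenated Old replicates 2, 5 and 6, with adjusted p from 0.0568 to 0.0931. Timp1, Timp3 and Timp4 overlap the synapsin genes Syn1, Syn3 and Syn2, whose means were 91.0, 52.9 and 5.50 in Young, 389, 30.4 and 9.58 in Old and 256, 33.0 and 15.5 in Rejuvenated Old MSCs. The mean of Timp4 in Rejuvenated Old MSCs was 11.1, below that of Syn2, and the share of reads either could lend the other cannot be told apart.

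Levels were compared between genes per kb of exon (all GENCODE M21 exons of a gene joined). In Young MSCs Mmp14 led the Mmp genes, with 45.1% of their summed level per kb, and Mmp2 held 7.51%. In Old MSCs Mmp2 led with 50.3%, followed by Mmp14 with 22.5%, and in Rejuvenated Old MSCs Mmp2 held 44.2% and Mmp13 17.97%. The summed Mmp level per kb was 5667 to 6137 in Young MSCs, 26673 to 28111 in Old MSCs and 24899 to 26679 in Rejuvenated Old libraries, so Old and Rejuvenated Old overlapped at their edges only. The summed Adamts level per kb was 2629 to 2838 in Young MSCs, 3283 to 3492 in Old MSCs and 4498 to 5201 in Rejuvenated Old libraries, and these 3 ranges were apart. The share of Adamts2 in that sum was 60.1% in Young MSCs, 41.7% in Old MSCs and 29.1% in Rejuvenated Old MSCs. The ratio of the summed Timp level to the summed Mmp level was 2.88 to 3.14 in Young MSCs, 0.981 to 1.12 in Old MSCs and 0.792 to 1.06 in Rejuvenated Old libraries. Young was apart from the others, and Old and Rejuvenated Old overlapped. These are ratios of transcripts and not of active protein.

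**Figure D4:**
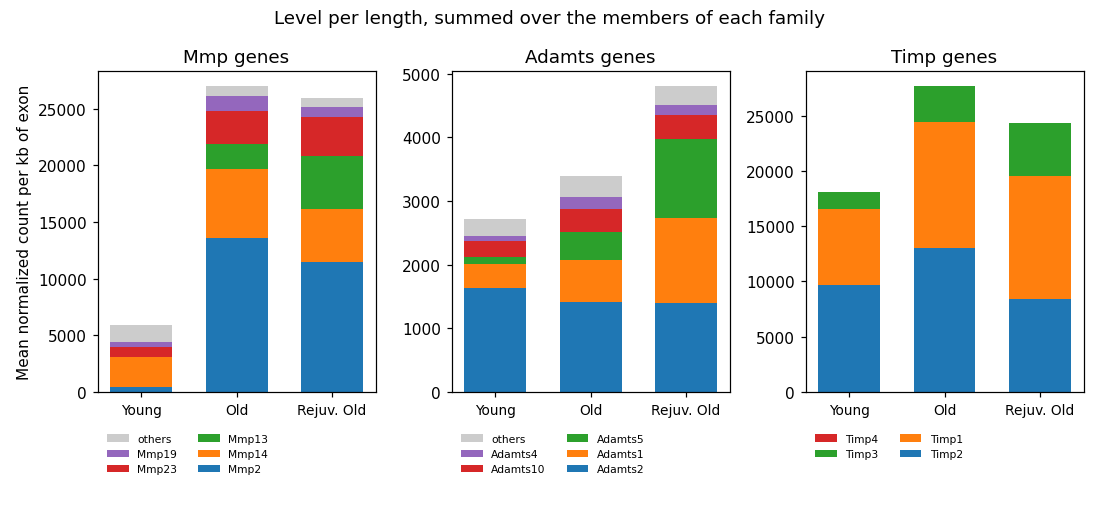
Mean normalized count per kb of exon, stacked over the genes of the Mmp, Adamts and Timp families (bars from 0, 1 bar a group, the mean of 6 libraries, no error shown). Mmp2 makes up most of the difference in height between Young and the other groups on the left, and Adamts1 and Adamts5 that between Old and Rejuvenated Old in the middle.

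Relatives, activators, inhibitors and proteoglycan substrates of these proteases were taken from lists of 33 genes, of which 25 could be tested. In Rejuvenated Old against Old MSCs 5 were higher and 13 lower, in Young against Old MSCs 9 higher and 15 lower, and in Rejuvenated Old against Young MSCs 15 higher and 8 lower. These were 72.0%, 96.0% and 92.0% of the tested genes of the lists, against 41.6%, 85.7% and 85.6% of all tested genes. Of the 8 activators and inducers, 4 were higher and 3 lower with co-culture. The 4 were Bsg, an inducer of MMPs also known as Emmprin, by 0.88, the proprotein convertase Pcsk6 by 0.76, the urokinase gene Plau by 0.40 and its receptor Plaur by 0.26 on the log2 scale. Plat, the tissue plasminogen activator, was lower (log2 fold change -0.80), with a median of 1919 in Old and 1096 in Rejuvenated Old MSCs, and Furin and Pcsk7 were lower (-0.23 and -0.14). Of the 11 related Adam and astacin proteases, 9 were tested and 6 fell below their Old level in Rejuvenated Old MSCs, among them the sheddases Adam10 (log2 fold change -0.85) and Adam17 (-0.20). Of the 10 inhibitors, clearance receptors and ADAMTS-like relatives, 6 were tested, and among them Lrp1 and Serpine2 were lower (-0.43 and -0.69) and Thsd4 was higher (0.74). Reck, a membrane-bound inhibitor of MMPs, had medians of 770.1 and 765 (adjusted p = 0.839). Endothelial markers were low, with sums of 150 to 208 in Young MSCs, 127 to 171 in Old MSCs and 145 to 211 in Rejuvenated Old libraries, and of 3 that could be tested Kdr was lower in Rejuvenated Old MSCs. The sum of the 12 MSC markers was 322363 to 348916, 444860 to 471001 and 435493 to 467784 in the 3 groups, with 3 markers raised and 6 lowered in Rejuvenated Old relative to Old MSCs.

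The 16 genes with a mean under 10 were not tested. They were Mmp1a, Mmp1b, Mmp7, Mmp8, Mmp10, Mmp20, Mmp21, Mmp24, Mmp25, Adamts8, Adamts13, Adamts17, Adamts18, Adamts19, Adamts20 and Adamtsl2. Besides Mmp10, Adamtsl2 had Young libraries at 5.15 to 13.9 and at most 1.00 in Old and 0.943 in Rejuvenated Old MSCs, and Adamts8 was 2.13 to 10.3 in Young, 0 in all Old and at most 1.89 in Rejuvenated Old MSCs. The gene just inside the minimum was Adamts16, with a mean of 10.4, and the one just outside was Adamts17, with a mean of 8.25 over the 18 libraries.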

How the data were processed

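RNA of 18 mouse MSC cultures was sequenced with a stranded mRNA kit. The authors aligned reads to mm10 with HISAT2, used StringTie and featureCounts, and normalized with DESeq2 on Galaxy; versions, annotation, strand setting and filters are not given in the sources used here. As deposited, each value is a signal, the read count of a gene divided by its library's size factor. All values came out as whole reads (100%, tolerance 0.01), from 22936251 to 29559194 a library, which sets the counting error of low genes.

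Groups were taken from the labels. limma 3.58.1 (R 4.3.3, prior variance following the mean, all 3 groups in one fit) was applied to log2(value + 1) of 14353 genes (mean of 10 or more), with Benjamini-Hochberg adjustment over all of them, and DEGs had an adjusted p under 0.05. edgeR 4.0.16 (quasi-likelihood) and DESeq2 1.42.0 were run on the recovered reads. The fits were tested on simulated counts. Other pseudocounts, filters, scalings, fits of 2 groups, a replicate block, chromosome medians and leaving out each library were tried. Genes and lists were chosen with earlier results of these data known, and values in full are given for the Timp genes and the 8 DEGs with the largest fold change in Rejuvenated Old against Old and in Young against Old MSCs. Other genes named come from lists of activators, relatives, inhibitors and proteoglycans and from markers of MSCs, macrophages, osteoclasts, neutrophils, endothelium, osteoblasts and chondrocytes. Some genes are not reported here. Positions and promoters came from RefSeq GRCm38.p6. Within groups, all 15 pairs of libraries differed by more than sampling noise (chi-square over degrees of freedom from 2.6 to 23.7), and each was counted as a replicate.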

Additional observations from a re-analysis of the deposited data

Results flagged for a closer look

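Single libraries lay far from the other 5 of their group (a gap, as a share of the group's range, above Dixon's 95% critical value) in 6 of 102 groups tested, where chance flags about 1 in 20. Adamts14 was 213 in Young replicate 1, with the others at 154 to 166. Adamtsl3 was 545 in Rejuvenated Old replicate 6, with the others at 428 to 456. Mmp14 was 37947 in Old replicate 4, with the others at 35683 to 36127, and Mmp15 was 389 in the same library, with the others at 312 to 341. Mmp19 was 2617 in Rejuvenated Old replicate 5, with the others at 3252 to 3505, and Mmp3 was 95.9 in that library, with the others at 59.9 to 68.9. The calls of these 6 genes did not change in any comparison when the library was left out. No gene was flagged in Rejuvenated Old replicate 1.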

How the results depend on the processing

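Over 3030 refits of the 105 comparisons of single genes no DEG changed direction, and the call changed in at least 1 refit for 8 comparisons, given above for Adamts12, Mmp9, Timp4, Mmp12, Adamts15, Adamts1, Adamts9 and Adamtsl5. The number of DEGs in Rejuvenated Old against Old MSCs, 24, became 5 when a log2 fold change of at least 1 was also required, by that rule's own construction. On leaving out 1 library it ran from 21 to 24, with 34 in every case for Young against Old and 34 to 35 for Rejuvenated Old against Young MSCs. A replicate block gave 22, 34 and 34 DEGs. It is not a pairing, since same-numbered libraries correlated at -0.15 to 0.07. Only 1 of 6 Rejuvenated Old libraries correlated best with its own number among the Old libraries. Under the block, the calls of Adamts12 (adjusted p = 0.0732) and Mmp9 (0.0502) in Rejuvenated Old against Old MSCs were lost. Without the filter on low values those of Adamts12 (0.0680) and Timp4 (0.0561) were lost. Genes with at most 3 reads a library, such as Mmp12 in Young and Adamts3 in Old MSCs, have folds limited by counting.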
